A study of Mus musculus with 6 samples.

Results

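The synaptic vesicle and release machinery was followed as a set of 38 mouse genes, taken from a list of symbols by their known function and not by a threshold on their change with age, although results of these data were known when the list was made. All 38 were found among the 38355 genes of the count tables. RNA was sequenced from whole cortical hemispheres of wild-type C57BL/6 mice, an inbred laboratory strain, with 3 brains taken at 6 months and 3 at 16 months. No transgene or treatment was named for either age. The study's methods say, in their section on sorted cells, that sequencing used male mice, and the sample labels give no sex. The hemispheres hold every cell type of the cortex, so that fewer cells of a type and less RNA per cell cannot be told apart in any value below. Reads counted on genes summed to between 29797253 and 46519280 per sample, and between 1.84% and 1.89% of these counts fell on the 38 genes. At this depth 3 counts correspond to between 0.064 and 0.1 counts per 1000000 (CPM), and the lowest count of any member in any sample was 345. For the least abundant members counting error was as large as the spread between samples. It was 4.41% to 5.38% per sample for Syn3, whose coefficient of variation was 2.79% at 6 months, and 3.31% to 4.39% for Cplx3, where it was 0.346%. In 11 of the 38 genes the spread at 6 months, and in 5 the spread at 16 months, was below the largest counting error of a sample, so that narrow groups of these genes do not show a precision beyond that error. All 38 passed the filter on low counts, which kept 17120 genes.

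Neurons store transmitter in synaptic vesicles, which synapsins tether in a reserve near the release site and which carry transporters such as the glutamate transporter encoded by Slc17a7. At the active zone, scaffold proteins of the RIM, Bassoon and Piccolo families hold vesicles close to calcium channels, and Munc13 proteins (the Unc13 genes) prime them by opening syntaxin. Priming lets the vesicle SNARE synaptobrevin (Vamp1, Vamp2) zip with syntaxin and SNAP-25. Complexins clamp and assist this complex, synaptotagmins sense calcium through their C2 domains, and the ATPase NSF with its SNAP adaptors takes the spent complex apart.

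The sequences just upstream of 4 of these genes are shown because their values in every sample are described below. Of the 4, Unc13c passed the test between ages, and Cplx3, Nsf and Syn1 did not. They are the 250 bases before the annotated start in RefSeq, build GRCm38.p6, read 5′ to 3′ on the strand of the gene, which is the minus strand for all 4. The windows are chr9:73969038-73969287 for Unc13c, chr9:57606282-57606531 for Cplx3, chr11:103954057-103954306 for Nsf and chrX:20920919-20921168 for Syn1. Capitals mark the matches to the motifs searched.
Unc13c: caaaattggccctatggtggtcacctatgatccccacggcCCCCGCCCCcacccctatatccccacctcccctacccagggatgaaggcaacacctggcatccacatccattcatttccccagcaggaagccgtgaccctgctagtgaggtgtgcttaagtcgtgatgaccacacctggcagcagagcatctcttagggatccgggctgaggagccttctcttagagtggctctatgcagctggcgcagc
Cplx3: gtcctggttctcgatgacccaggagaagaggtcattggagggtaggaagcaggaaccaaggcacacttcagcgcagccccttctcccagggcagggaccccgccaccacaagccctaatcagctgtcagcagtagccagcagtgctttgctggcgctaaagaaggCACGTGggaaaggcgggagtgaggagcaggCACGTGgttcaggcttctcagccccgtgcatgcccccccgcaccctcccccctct
Nsf: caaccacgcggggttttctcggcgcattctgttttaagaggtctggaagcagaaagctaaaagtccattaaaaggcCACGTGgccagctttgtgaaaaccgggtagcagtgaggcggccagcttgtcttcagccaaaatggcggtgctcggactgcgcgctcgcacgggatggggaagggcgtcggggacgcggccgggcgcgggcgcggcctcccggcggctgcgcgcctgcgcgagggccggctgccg
Syn1: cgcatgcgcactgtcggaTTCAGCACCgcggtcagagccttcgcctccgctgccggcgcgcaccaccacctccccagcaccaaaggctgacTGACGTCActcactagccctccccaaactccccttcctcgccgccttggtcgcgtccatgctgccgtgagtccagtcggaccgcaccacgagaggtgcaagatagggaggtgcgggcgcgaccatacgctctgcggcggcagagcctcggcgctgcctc

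Windows of this kind were given for 27 of the 38 genes (37 windows), which do not include Syn3, beside 32851 windows of all genes, and were searched on both strands. In the Syn1 window the capitals are TTCAGCACC, the left part of the RE1 element bound by the neuronal repressor REST, at 232 bases before the start, and TGACGTCA, the cyclic AMP response element, at 159 bases. Each of these stood in 1 of the 37 member windows (2.7%), that of Syn1, against 0.301% of all windows for the RE1 part and 1.55% for the cyclic AMP element. The longer RE1 core, of which the first motif is a part, had a full match in 0% of member windows and 0.00913% of all windows. The Syn1 window lacks a full match through a mismatch in the right part of the core. The E-box CACGTG marked at 85 and 55 bases in Cplx3 and at 174 bases in Nsf was present in 18.9% of member windows and 6.02% of all windows. The GC box GGGGCGGGG, read on the opposite strand in Unc13c at 210 bases, was present in 29.7% of member windows and 10.4% of all windows. A match of letters is a description of the window and not a bound site.

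Before the ages were compared, the samples of one age were compared with each other, and replicates 1 and 2 at 16 months stood apart. Over all tested genes with a value, the deviation of replicate 1 from the mean of its age correlated with the GC content of the transcripts with r = 0.60, and that of replicate 2 with r = −0.59. In the other 4 samples r lay between −0.13 and 0.16. Across the 38 release genes, which are not independent replicates, r was 0.92 in replicate 1 and −0.89 in replicate 2 at 16 months. It was also 0.67 in replicate 1 and −0.62 in replicate 2 at 6 months, where the deviations themselves were smaller. Replicate 1 at 16 months deviated by −0.27 to 0.25 on the log2 scale from the mean of its age, and no 6-month sample deviated by more than 0.11. The GC content of the 38 genes had a median of 53.1%, from 40.7% for Syt4 to 61.8% for Doc2a, against a median of 50.2% over all tested genes. Values without either of these samples are given beside the genes whose call depended on it.

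**Figure D1:**
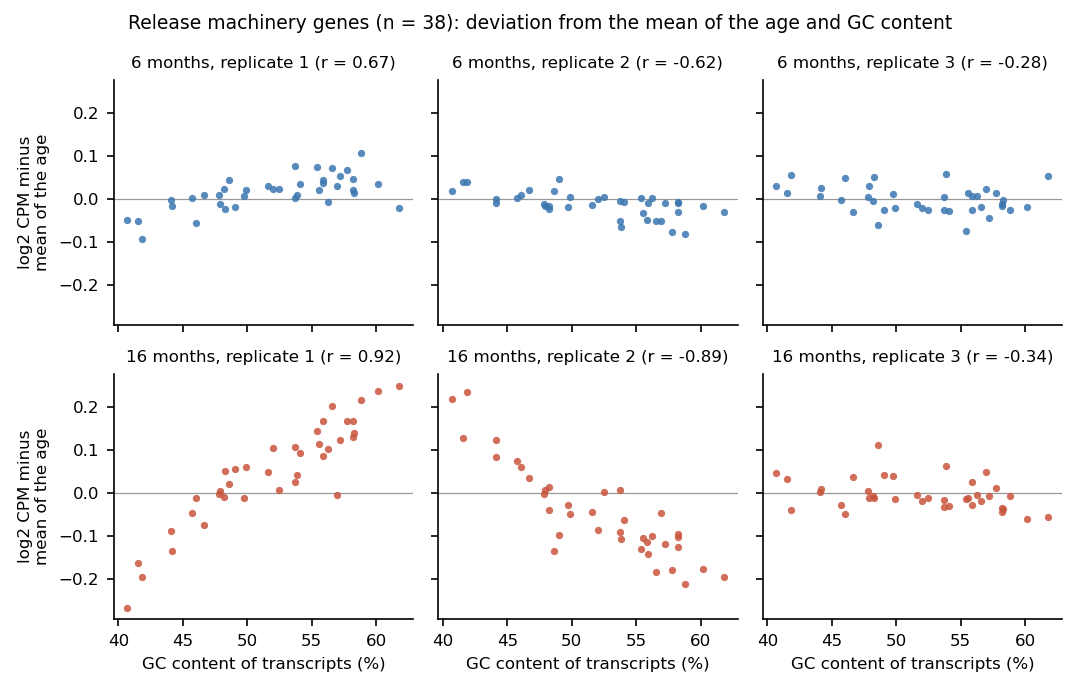
Deviation of each of the 38 release machinery genes from the mean of its age (log2 CPM, vertical axis) against the GC content of its transcripts (percent, horizontal axis), 1 panel per sample and 1 point per gene. Replicate 1 at 16 months rises with GC content (r = 0.92), replicate 2 at 16 months falls with it (r = −0.89), and the 6-month panels slope the same way for replicates 1 and 2 (r = 0.67 and r = −0.62) with smaller deviations.

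Most of the release machinery differed little between 6 and 16 months. Of the 38 genes, 2 rose at 16 months at an adjusted P under 0.05, the Munc13 gene Unc13c and the synapsin gene Syn3, and 0 fell. These 2 are 5.26% of the members, where the same test called 1.67% of all tested genes, 0.783% as higher and 0.888% as lower. Unless another test is named, adjusted P values come from the quasi-likelihood test of edgeR, corrected by Benjamini-Hochberg over all 17120 genes. Before adjustment, 12 of the 38 genes had P under 0.05, beside 17.4% of all tested genes. Log2 fold changes, given as 16 over 6 months throughout, ran from −0.24 for the complexin gene Cplx3 to 0.39 for Unc13c, and 21 members lay within 0.1 of 0.

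The fold changes of the 38 genes lay mainly above 0. The sign was positive in 29 genes and negative in 9, so that 76.3% were positive, beside 50.3% of all tested genes. Their median log2 fold change was 0.08, and that of all tested genes was 0.00 to 2 decimals. Summed over the 38 genes the level was between 18260 and 18510 CPM at 6 months and between 18890 and 19020 CPM at 16 months, so that the summed levels did not overlap. The median moved to 0.03 without replicate 1 at 16 months and to 0.11 without replicate 2. When the trend with GC content and transcript length was removed from each sample by offsets, it was 0.04, with 26 of the 38 positive (68.4%). The 29 members with a positive fold change had a median GC content of 54.1%, and the 9 with a negative one had 46.6%.

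The samples of both ages lay fully apart in 11 of the 38 genes (28.9%), beside 23.7% of all tested genes. In 10 of these the 16-month samples were higher (Unc13c, Syn3, Sv2c, Nsf, Syt6, Syt11, Syn2, Vamp2, Syp and Rims1), beside 12.2% of all tested genes, and in Cplx3 they were lower, beside 11.5%. Spread between samples was larger at 16 months in 34 of the 38 genes (89.5%), beside 75.5% of all tested genes. The median coefficient of variation of the members was 2.22% at 6 months and 6.99% at 16 months, beside 4.35% and 8.92% over all tested genes. The GC-related deviations of replicates 1 and 2 at 16 months enter this spread, and their share of it was not tested.

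**Figure D2:**
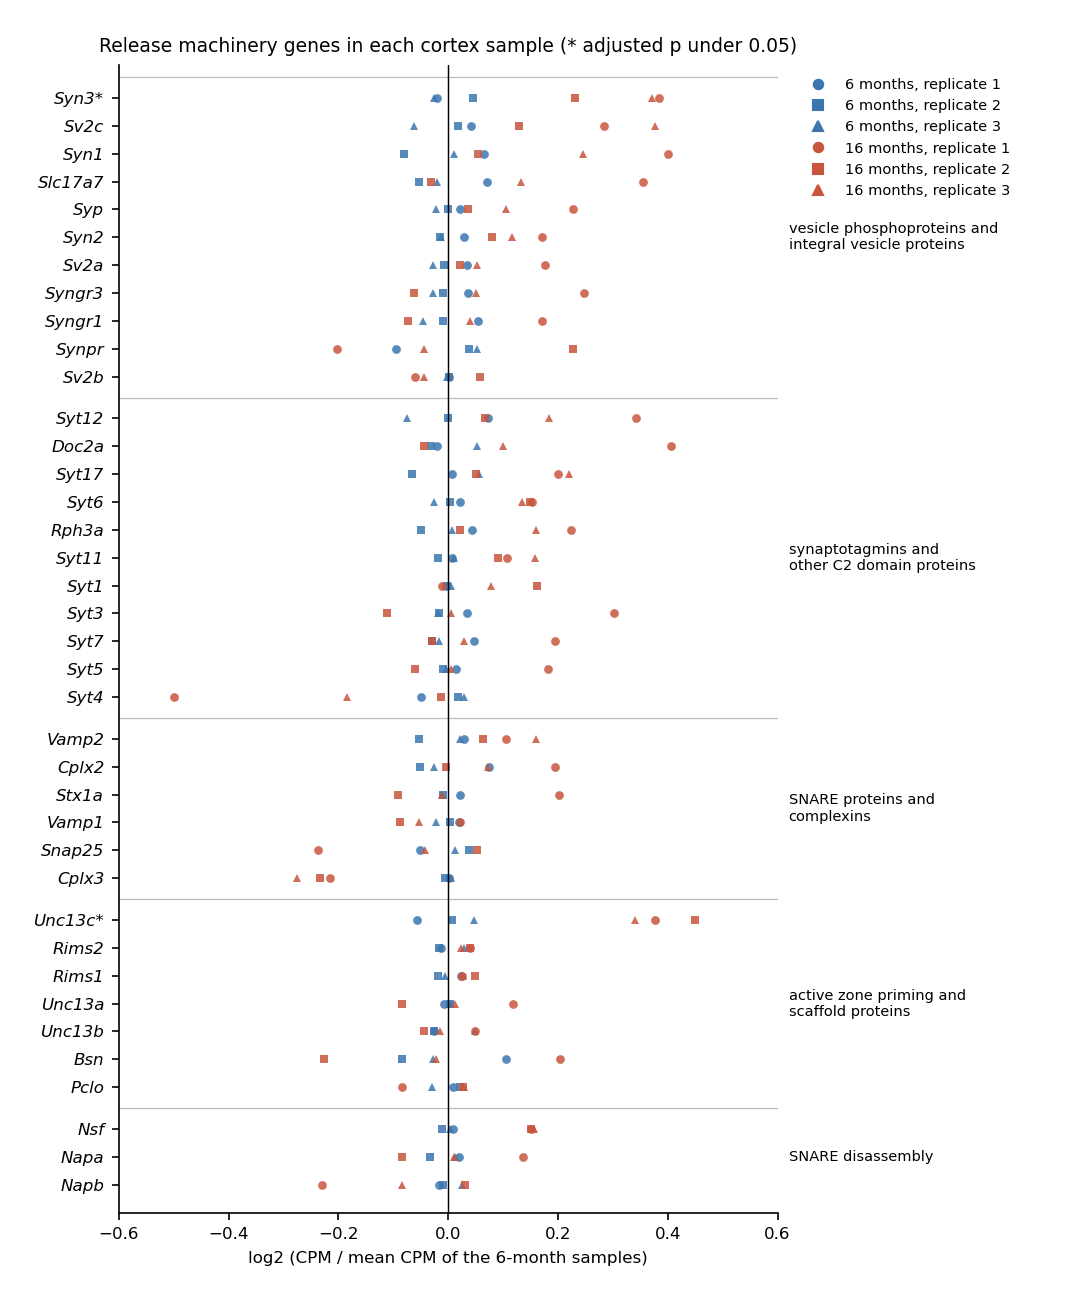
Level of each release machinery gene in each of the 6 samples as log2 of its CPM over the mean of the 6-month samples (horizontal axis), with genes grouped by role and ordered by fold change (vertical axis). Blue symbols are 6 months, red symbols 16 months, the symbol shape gives the replicate, and an asterisk marks the 2 called genes, Syn3 and Unc13c. The 3 red symbols of Unc13c, Nsf and Cplx3 sit close together and apart from the blue ones, whereas those of Syt4, Syn1 and Bsn are spread out.

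The samples used changed the number of called members more than it changed most fold changes. Unc13c and Syn3 were also the 2 members called with DESeq2's size factors (1.69% of all tested genes), without the filter on low counts (2.35%) and by DESeq2's Wald test (3.03%). Without replicate 2 at 16 months, 12 of the 38 members were called (31.6%), beside 12.7% of all tested genes. Without replicate 1 at 16 months, 4 members were called, Unc13c, Syn3, Sv2c and Cplx3 (10.5%, beside 5.73% of all tested genes). When each of the other 4 samples was left out in turn, 0 members were called, and between 0.277% and 0.335% of all tested genes. With the GC and length offsets, 13 members were called (34.2%), beside 15.2% of all tested genes.

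Members were expressed over a wide range of levels, compared here per length as CPM per kb of annotated exons. Snap25, which encodes the SNARE protein SNAP-25 of the nerve terminal membrane, was the most abundant at 6 months with 536 ± 17.0 CPM per kb (SD, n = 3). It was followed by Cplx2 with 246 ± 11.5, Vamp2 with 230.0 ± 7.12, Syt1 with 212 ± 0.739 and Slc17a7 with 181 ± 8.04 CPM per kb. These 5 genes are a calcium sensor, the main cortical SNAREs, a complexin and the vesicular glutamate transporter of cortical excitatory neurons. The 2 genes that rose were among the least abundant of the 38. Unc13c stood at 5.30 ± 0.191 CPM per kb at 6 months, below its paralog Unc13a at 40.1 ± 0.204 and close to Unc13b at 3.96 ± 0.119 CPM per kb. Syn3 was the lowest of all with 0.907 ± 0.0253 CPM per kb, whereas Syn1 had 134 ± 6.75 and Syn2 had 76.4 ± 1.32 CPM per kb.

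**Figure D3:**
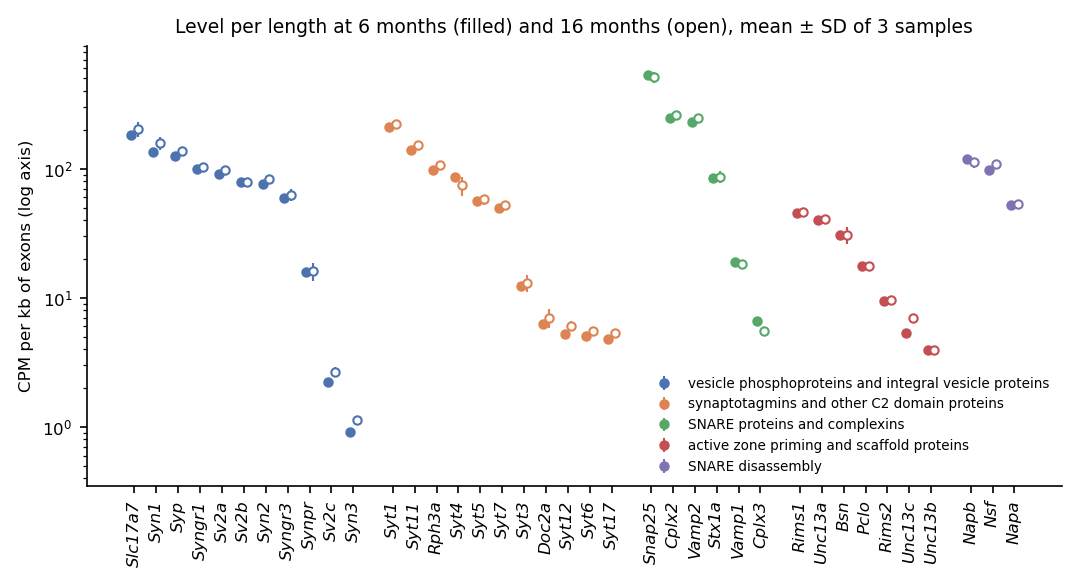
Level per length (CPM per kb of annotated exons, log axis) of each release machinery gene at 6 months (filled circles) and 16 months (open circles), as the mean of 3 samples with bars for the SD, coloured by role. Levels run from 0.907 CPM per kb for Syn3 to 536 for Snap25 at 6 months, and the order of genes within a role is nearly the same at both ages.

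Of the 11 vesicle phosphoproteins and integral vesicle proteins, 1 rose and 0 fell by the test (9.09% called, beside 1.67% of all tested genes). The fold change was positive in 10 (90.9%, beside 50.3%), and the median log2 fold change was 0.12. Before adjustment 4 of the 11 had P under 0.05, beside 17.4% of all tested genes. The synapsin gene Syn3, on chromosome 10 of GRCm38 from 86055125 to 86498896, belongs to the family that coats vesicles and ties them to actin. It was measured at 10.99, 11.5 and 10.94 CPM in replicates 1, 2 and 3 at 6 months and at 14.54, 13.08 and 14.41 CPM at 16 months. All 16-month samples lay above all 6-month samples, with replicate 2 the lowest of the older ones. The mean rose from 11.1 ± 0.311 to 14.0 ± 0.807 CPM, or by 26.0% (log2 fold change 0.33 ± 0.070 SE, adjusted P = 0.0494), a value just under the threshold. With at least 10 counts required in every sample the adjusted P of Syn3 was 0.0541, and with each 6-month sample or replicate 3 at 16 months left out in turn it was between 0.168 and 0.260. Of the exons of Syn3, 14.1% overlap Timp3, which encodes a metalloproteinase inhibitor and lies on the opposite strand. Timp3 had 72.5 ± 2.31 CPM at 6 months and 76.8 ± 4.43 CPM at 16 months (adjusted P = 0.503).

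Syn1 and Syn2 encode the abundant synapsins. Syn1 was measured at 462, 418 and 445 CPM in replicates 1, 2 and 3 at 6 months and at 583, 459 and 524 CPM at 16 months. Replicate 1 was the highest and replicate 2 the lowest at both ages, and replicate 2 at 16 months lay below replicate 1 at 6 months, so that the ages overlapped. The log2 fold change of Syn1 was 0.24 ± 0.082 (SE, adjusted P = 0.180). It was 0.15 without replicate 1 at 16 months (adjusted P = 0.141) and 0.32 without replicate 2 (adjusted P = 0.00716). With the GC and length offsets it was 0.21 (adjusted P = 0.000841). Syn2 had 537 ± 9.25 CPM at 6 months and 585 ± 18.6 CPM at 16 months (log2 fold change 0.12 ± 0.049, adjusted P = 0.235), with the ages apart, and 0.08 with the offsets (adjusted P = 0.0451).

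The integral vesicle proteins gave small values. Sv2c, the least abundant of the SV2 glycoproteins, had 21.6 ± 0.813 CPM at 6 months and 26.0 ± 2.24 CPM at 16 months (log2 fold change 0.27 ± 0.073, adjusted P = 0.104), with no overlap between ages. The adjusted P of Sv2c was 0.0456 without replicate 1 and 0.00883 without replicate 2 at 16 months, and 0.0119 with the GC and length offsets. Its paralogs Sv2a and Sv2b had log2 fold changes of 0.08 and −0.02. Syp, which encodes synaptophysin, the standard protein marker of vesicles, had 650 ± 10.1 CPM and 708 ± 47.8 CPM (0.12 ± 0.058, adjusted P = 0.301), and 16.8% of its exons overlap an antisense gene. Without replicate 1 at 16 months the log2 fold change of Syp was 0.07, and without replicate 2 it was 0.17 (adjusted P = 0.0439). Slc17a7, which loads glutamate into vesicles, was measured at 1025, 941 and 963 CPM at 6 months and 1248, 955 and 1070 CPM at 16 months, with replicate 2 at 16 months inside the range of the younger samples (0.16 ± 0.087, adjusted P = 0.380). The log2 fold change of Slc17a7 was 0.05 without replicate 1 at 16 months (adjusted P = 0.640), 0.25 without replicate 2 (adjusted P = 0.0281) and 0.12 with the GC and length offsets (adjusted P = 0.0307). The synaptophysin relatives Syngr1, Syngr3 and Synpr had log2 fold changes of 0.05, 0.08 and 0.00 with adjusted P between 0.612 and 0.988.

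Of the 11 synaptotagmins and other C2 domain proteins, 10 had a positive fold change (90.9%, beside 50.3% of all tested genes), and the median was 0.12. The quasi-likelihood test called 0, beside 1.67% of all tested genes, and DESeq2's Wald test called 0, beside 3.03%. Before adjustment 5 had P under 0.05 by the quasi-likelihood test, beside 17.4%. Syt4 had the largest absolute fold change of the group and was the only one with a negative sign. It encodes a synaptotagmin that does not bind calcium through its first C2 domain and that also sits on dense core vesicles. Syt4 was measured at 325, 341 and 344 CPM in replicates 1, 2 and 3 at 6 months and at 238, 334 and 296 CPM at 16 months. Replicate 2 at 16 months lay within the younger range, so that the ages overlapped, and replicate 1 was by far the lowest of the 6 samples. The log2 fold change was −0.22 ± 0.10 (SE, adjusted P = 0.304), −0.10 without replicate 1 at 16 months and −0.33 without replicate 2 (adjusted P = 0.0180). Syt4 has the lowest GC content of the 38 genes, and with the GC and length offsets its log2 fold change was −0.16 (adjusted P = 0.0101). Of its exons, 14.5% overlap the antisense gene Gm26658, which stood at 1.09 ± 0.132 CPM at 6 months.

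Syt1, the calcium sensor of fast release in the forebrain, had 1767 ± 6.16 CPM at 6 months and 1866 ± 112 CPM at 16 months (log2 fold change 0.08 ± 0.055, adjusted P = 0.503). Its 6-month samples were close together, at 1762, 1765 and 1774 CPM, and its 16-month samples at 1754, 1977 and 1866 CPM. Syt7, linked to asynchronous release and facilitation, had a log2 fold change of 0.07, and Syt3 and Syt5 had 0.08 and 0.05. Syt6 and Syt11 had their ages apart. Syt6 moved from 29.4 ± 0.493 to 32.5 ± 0.211 CPM (0.14 ± 0.052, adjusted P = 0.197) and Syt11, which like Syt4 does not bind calcium, from 732 ± 8.29 to 795 ± 19.4 CPM (0.12 ± 0.047, adjusted P = 0.232). Both share nearly identical stretches with other genes, through which reads can be left uncounted. Syt12, Syt17 and Rph3a (rabphilin, a Rab3 effector) had log2 fold changes of 0.20, 0.16 and 0.14 with adjusted P between 0.216 and 0.282. Without replicate 2 at 16 months these were 0.26, 0.21 and 0.19 with adjusted P between 0.0250 and 0.0414, and without replicate 1 they were 0.13, 0.14 and 0.09 with adjusted P between 0.244 and 0.324. With the GC and length offsets Syt12, Rph3a, Syt1 and Syt11 had adjusted P between 0.0243 and 0.0385. Doc2a, a high-affinity calcium sensor of spontaneous release, had 0.17 ± 0.10 (adjusted P = 0.448), with 0.03 without replicate 1 and 0.26 without replicate 2 at 16 months, and 39.4% of its exons overlap Ino80e on the opposite strand.

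The 6 SNARE and complexin genes split evenly, with 3 positive and 3 negative fold changes and a median of 0.00 to 2 decimals. The quasi-likelihood test and DESeq2's Wald test both called 0 of them, beside 1.67% and 3.03% of all tested genes. In 1, Cplx3, the unadjusted P was under 0.05, beside 17.4% of all tested genes. Cplx3, on chromosome 9 from 57599992 to 57606281, encodes a complexin anchored to membranes by a lipid group, known from retinal ribbon synapses and in the cortex from neurons of layer 6b. It was measured at 19.46, 19.37 and 19.5 CPM in replicates 1, 2 and 3 at 6 months and at 16.74, 16.53 and 16.07 CPM at 16 months. The 3 samples of each age were closer together than counting error and the ages lay apart, including replicates 1 and 2 at 16 months. The log2 fold change of Cplx3 was −0.24 ± 0.058 (SE, adjusted P = 0.0755), above the threshold. It was −0.26 without replicate 1 at 16 months (adjusted P = 0.0264), −0.25 without replicate 2 (adjusted P = 0.0286) and −0.27 with the GC and length offsets (adjusted P = 0.00218). With each of the other 4 samples left out the adjusted P was between 0.256 and 0.307.

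Markers of layer 6b neurons, the deepest cells of the cortex, moved in the same direction as Cplx3. Their summed level was 39.3, 39.8 and 41.1 CPM at 6 months and 33.1, 31.0 and 32.3 CPM at 16 months, over the 3 of 4 listed symbols that were found and tested. All 3 had a negative log2 fold change, −0.33 for Ccn2, −0.28 for Moxd1 and −0.33 for Nxph4. Ccn2, which made up most of the sum, fell from 28.3 ± 0.470 to 22.5 ± 0.628 CPM (adjusted P = 0.0204). Moxd1 and Nxph4 did not pass the test (adjusted P = 0.0929 and 0.388), and the ages of Nxph4 overlapped. Whether the amount of layer 6b tissue had a part in the value of Cplx3 was not tested.

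The other SNARE genes lay closer to 0. Vamp2, the synaptobrevin of most cortical terminals, had 876 ± 27.1 CPM at 6 months and 945 ± 31.7 CPM at 16 months (log2 fold change 0.11 ± 0.051, adjusted P = 0.300), with the ages apart. Vamp1, the synaptobrevin of fast-spiking interneurons and of brainstem and spinal neurons, had 191 ± 2.79 and 186 ± 7.28 CPM (−0.04 ± 0.051, adjusted P = 0.743). Syt2 and Cplx1, release genes outside the 38 that are strongly used by parvalbumin interneurons, did not pass the test either. Syt2 had 71.3 ± 3.31 and 71.5 ± 2.76 CPM (0.00 to 2 decimals, adjusted P = 0.989) and Cplx1 had 596 ± 9.90 and 612 ± 39.8 CPM (0.04 ± 0.057, adjusted P = 0.779). In the same samples Pvalb, the calcium buffer of these cells, fell from 42.6 ± 1.03 to 18.4 ± 0.761 CPM (log2 fold change −1.21 ± 0.059, adjusted P = 1.492e-05). Snap25 was measured at 3513, 3738 and 3674 CPM at 6 months and 3089, 3777 and 3538 CPM at 16 months (−0.07 ± 0.072, adjusted P = 0.663). Stx1a and Cplx2 had log2 fold changes of 0.04 and 0.09.

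Of the 7 active zone genes, 1 rose and 0 fell (14.3% called, beside 1.67% of all tested genes). The fold change was positive in 4 (57.1%, beside 50.3%), and the median was 0.02. The gene that rose was Unc13c, which encodes Munc13-3, a priming protein best known from cerebellar granule cells. It lies on chromosome 9 from 73479422 to 73968966. Unc13c was measured at 44.86, 46.87 and 48.2 CPM in replicates 1, 2 and 3 at 6 months and at 60.58, 63.71 and 59.06 CPM at 16 months. The ages were well apart, and the gap between them was larger than the range within either. The mean rose from 46.6 ± 1.68 to 61.1 ± 2.37 CPM, or by 31.0% (log2 fold change 0.39 ± 0.056 SE, adjusted P = 0.00991). The fold change stayed between 0.36 and 0.41 when any sample was left out and was 0.38 with the GC and length offsets. The adjusted P was 0.000561 without replicate 1 and 0.00307 without replicate 2 at 16 months. It missed the threshold without replicates 1, 2 or 3 at 6 months (0.08995, 0.0806 and 0.0760) and without replicate 3 at 16 months (0.0608).

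The other Munc13 genes, which prime most cortical synapses, lay near 0. Unc13a, the main isoform of excitatory terminals, had 506 ± 2.57 CPM at 6 months and 512 ± 35.9 CPM at 16 months (log2 fold change 0.02 ± 0.058, adjusted P = 0.902). Unc13b had 90.02 ± 2.70 and 89.9 ± 2.97 CPM (0.00 to 2 decimals ± 0.053, adjusted P = 0.986). The RIM genes Rims1 and Rims2 both had a log2 fold change of 0.03, and the ages of Rims1 lay apart by less than 1 CPM, with 338.5 CPM the highest sample at 6 months and 339.1 CPM the lowest at 16 months. Pclo, which encodes Piccolo, had −0.01. Bsn, which encodes Bassoon, was measured at 529, 464 and 483 CPM at 6 months and 566, 421 and 485 CPM at 16 months, with replicate 1 the highest and replicate 2 the lowest at both ages (0.00 to 2 decimals ± 0.097, adjusted P = 0.988).

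Of the 3 genes of SNARE disassembly, the quasi-likelihood test and DESeq2's Wald test both called 0, beside 1.67% and 3.03% of all tested genes. In 1, Nsf, the unadjusted P was under 0.05, beside 17.4% of all tested genes. Nsf, on chromosome 11 from 103821782 to 103954056, encodes the ATPase that recycles SNARE proteins after fusion. It was measured at 821, 810.2 and 818 CPM in replicates 1, 2 and 3 at 6 months and at 906, 907 and 910.4 CPM at 16 months. The older samples lay within 4 CPM of each other. Their coefficient of variation of 0.239% was below the counting error of 0.51% to 0.641% per sample. They lay well above all younger ones, and the difference was far larger than the spread within either age. The log2 fold change was nevertheless small, 0.15 ± 0.045 (SE, adjusted P = 0.125), and it was 0.15 also without replicate 1 (adjusted P = 0.0503) and without replicate 2 (adjusted P = 0.0351) at 16 months. With each of the other 4 samples left out the adjusted P was between 0.333 and 0.434. With the GC and length offsets it was 0.12 (adjusted P = 0.00660). The SNAP adaptors Napa and Napb had 198 ± 3.85 and 841 ± 13.3 CPM at 6 months and 201 ± 15.4 and 790 ± 70.7 CPM at 16 months, log2 fold changes of 0.02 and −0.09, with adjusted P of 0.882 and 0.523.

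**Figure D4:**
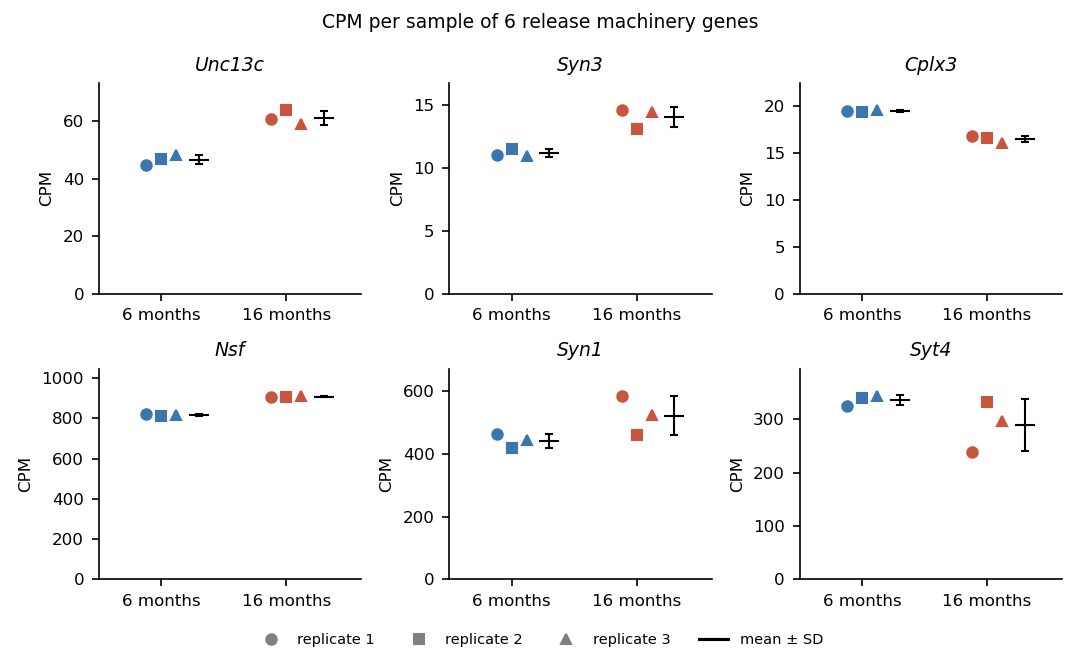
CPM of 6 release machinery genes in the 3 samples of each age (vertical axes start at 0), with the symbol shape giving the replicate and a bar beside each age for the mean ± SD. Unc13c rises from 46.6 to 61.1 CPM and Syn3 from 11.1 to 14.0 CPM, Cplx3 and Nsf have narrow groups that lie apart, and Syn1 and Syt4 have wide 16-month groups that overlap the younger ones.

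Ratios between paralogs within a sample do not depend on how the libraries were scaled, and 8 of them were compared between ages with a two-sided exact permutation test, whose smallest possible P is 0.1 for 3 samples per age. In 3 of the 8 the ages did not overlap, and with the GC and length offsets in 4. Of single genes, 23.7% of all tested had ages that did not overlap, and the share for ratios of other gene pairs was not computed. The log2 ratio of Cplx3 to Cplx2 was −5.96 ± 0.065 (SD, n = 3) at 6 months and −6.29 ± 0.091 at 16 months, a difference of −0.33. That of Vamp1 to Vamp2 was −2.20 ± 0.051 and −2.35 ± 0.065, a difference of −0.15, and that of Sv2c to Sv2a was −4.29 ± 0.031 and −4.11 ± 0.13, a difference of 0.18. Each of the 3 had the smallest P the exact test allows, 0.1, or 0.267 after Benjamini-Hochberg adjustment over the 8 ratios. The ratios of Sv2b to Sv2a, Syn2 to Syn1, Rims2 to Rims1, Unc13b to Unc13a and Synpr to Syp overlapped between ages, with differences from −0.13 to 0.00 and exact P between 0.3 and 1.0.

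Genes of the release pathway outside the 38 also had small values for the most part. Of 43 listed, which include further synaptotagmins, RIM-binding proteins, liprins, Rab3 proteins and transporters, 42 were tested, and Cplx4 was at 4 counts or fewer in every sample. Of the 42, 2 rose and 0 fell (4.76%, beside 1.67% of all tested genes), 33 had a positive fold change (78.6%, beside 50.3%) and the median was 0.04. Before adjustment 5 of the 42 had P under 0.05, beside 17.4% of all tested genes. The ages lay apart in 5 of the 42 (11.9%, beside 23.7% of all tested genes), all higher at 16 months. The 2 that rose were Doc2b and Erc1. Doc2b, like Doc2a a calcium sensor of spontaneous release, rose from 30.5 ± 1.38 to 39.9 ± 1.42 CPM (log2 fold change 0.38 ± 0.059, adjusted P = 0.0136). Erc1, an active zone scaffold of the ELKS family, rose from 62.7 ± 1.10 to 77.5 ± 2.24 CPM (0.31 ± 0.051, adjusted P = 0.0194). With each 6-month sample or replicate 3 at 16 months left out, neither passed, with adjusted P between 0.0568 and 0.124 for Doc2b and between 0.111 and 0.151 for Erc1. The transporters Slc17a6 and Slc32a1, of glutamate and of GABA, had log2 fold changes of 0.18 ± 0.078 and 0.17 ± 0.084, with adjusted P of 0.276 and 0.346.

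On the other side of the synapse, 17 of 18 postsynaptic scaffold genes had a positive fold change (94.4%, beside 50.3% of all tested genes) with a median of 0.12. The quasi-likelihood test called 0 of them, 6 had an unadjusted P under 0.05, beside 17.4% of all tested genes, and DESeq2's Wald test called 1, beside 3.03%. The ages lay apart in 5 of the 18 (27.8%), all higher at 16 months, beside 12.2% of all tested genes.

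The hemispheres held markers of the cortex and of regions beside it, and several moved with age. The marker lists were chosen with earlier results of these data known, so that their shares of called genes only describe the lists. The 8 markers of excitatory neurons were all tested, and their summed level was 1493 to 1534 CPM at 6 months and 1501 to 1692 CPM at 16 months, with overlap. The 8 GABAergic markers summed to 849 to 879 CPM at 6 months and 894 to 953 CPM at 16 months, and the 6 parvalbumin interneuron markers to 520 to 536 CPM and 486 to 517 CPM. Without Pvalb the other 5 of these summed to 479 to 492 CPM and 467 to 499 CPM, with overlap. Of 8 thalamic markers, 7 had a positive fold change (87.5%, beside 50.3% of all tested genes). By the test 5 rose, Shox2, Prkcd, Synpo2, Tcf7l2 and Tnnt1 (62.5%, beside 0.783% of all tested genes). Shox2 had only 4 counts in each 6-month sample. The thalamic sum went from between 51.7 and 54.4 CPM to between 76.2 and 79.0 CPM. Of 7 markers of the dentate gyrus, all 7 were positive, and 3 rose, Lct, Dsp and C1ql2 (42.9%, beside 0.783%). The dentate sum went from between 83.3 and 86.0 CPM to between 109 and 114 CPM. Penk of the striatum and Ttr of the choroid plexus rose as well, and the sums of the lists for the striatum, the choroid plexus and the hippocampal CA fields were higher in every 16-month sample than in any 6-month sample.

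These sums stood higher in the same samples as Unc13c and Syn3, and whether such tissue had a part in either value was not tested. Astrocyte markers summed to between 1418 and 1436 CPM at 6 months and between 1518 and 1636 CPM at 16 months, oligodendrocyte markers overlapped between ages at 6810 to 6895 CPM, microglial markers went from between 346 and 357 CPM to between 357 and 366 CPM with Aif1 lower by the test, and endothelial markers from between 134 and 137 CPM to between 128 and 133 CPM.

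**Figure D5:**
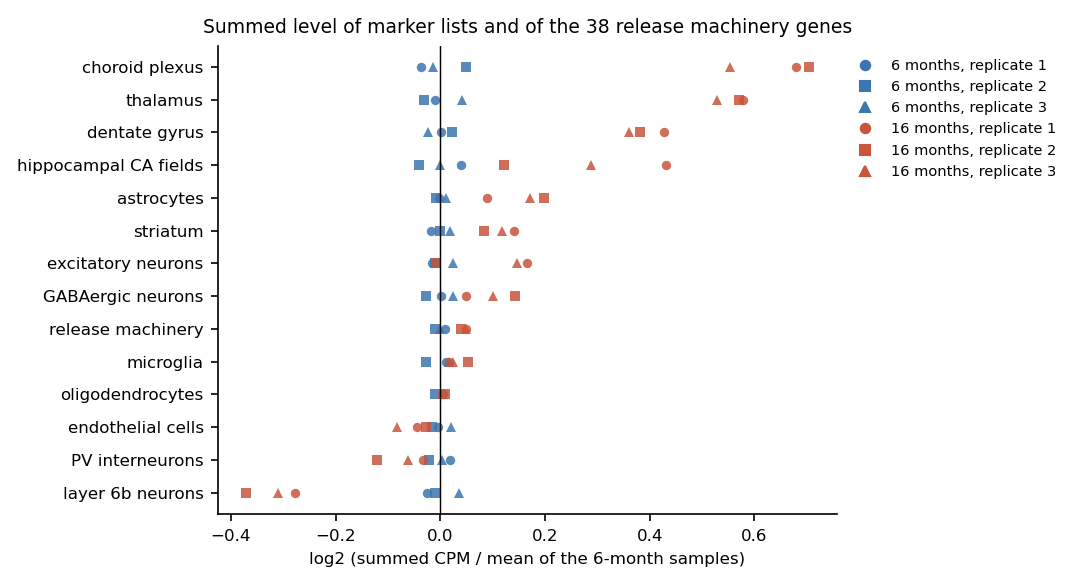
Summed level of each marker list and of the 38 release machinery genes in each of the 6 samples, as log2 of the summed CPM over the mean of the 6-month samples (horizontal axis); blue symbols are 6 months, red symbols 16 months, and the shape gives the replicate. Choroid plexus, thalamus and dentate gyrus lists are shifted furthest to the right at 16 months, layer 6b to the left, and the release machinery has a log2 ratio of 0.05 between the means of the ages.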

How the data were processed

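Polyadenylated RNA of 6 whole cortical hemispheres, 3 at 6 months and 3 at 16 months, was sequenced by the authors. According to the study's methods, fastq-mcf trimmed the reads, STAR (2-pass mode, mm10) aligned them and HTSeq counted them on Ensembl genes. The submitters' processing notes instead list CASAVA 1.8.2, STAR 2.3.0e and featureCounts 1.5.0-p1, and the deposited files end in HTSeq's summary lines. The deposited values are raw counts per gene, without normalization. The Ensembl release and strand setting are not given in the sources used here, and reads of 2 genes that overlap on opposite strands therefore cannot be told apart. Of the uniquely aligned reads, 70.8% to 76.5% lay on a gene. One housing note says 3 months for the younger animals, whereas all other labels say 6 months, which was used.

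The quasi-likelihood test of edgeR 4.0.16 (R 4.3.3) was fitted without covariates to the 17120 genes that passed filterByExpr, with TMM factors and a Benjamini-Hochberg threshold of 0.05. CPM values are TMM-scaled. Log2 values of single samples used a prior count of 2. Of 38355 genes, 36602 had an identifier in GENCODE's GRCm38 annotation. Exon length and GC content are those of all annotated transcripts of a gene. Near-identical stretches were searched with blastn 2.17.0 (97% identity over 100 bases). Alternatives were DESeq2's size factors in edgeR, no filter on low counts, at least 10 counts in every sample, DESeq2 1.42.0 (Wald test), the replicate number as a block, offsets for GC content and length in 20 bins, and each sample left out. For the comparison of the ages, simulated counts of 16926 genes gave a recovery of 89% at a log2 change of 1 and 66% at 0.5, with 7.74% false calls. The simulated samples had no deviation with GC content, and both changes exceeded the largest of any member (0.39). These rates therefore do not describe the 38 genes. P-values of the edgeR test weigh a difference against a spread between 3 brains per age that is partly pooled over genes. Genes with narrow groups, such as Nsf and Cplx3, are therefore not judged by their own spread alone. Floors describe counting error alone, because these reads carry no molecular identifiers.

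The 38 genes, the other gene lists and the rule for the genes named were chosen with earlier results of these data known. Values in every sample were given for members called by the main test or with the replicate block, and for the member with the largest absolute fold change of each role, and Slc17a7, Syt1, Snap25, Bsn and Rims1 were added after their values were seen. Of the other release genes, those called and Syt2, Cplx1, Slc17a6 and Slc32a1 were named, and some genes covered by the rule are not reported here.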

Additional observations from a re-analysis of the deposited data

How the results depend on the processing

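The test called 286 of all genes between the ages (1.67% of those tested). It called 648 without the filter on low counts (2.35%) and 783 with the replicate block (4.57%). With the GC and length offsets it called 2594 (15.2%), and with offsets and block 3587 (21.0%). DESeq2's Wald test called 471 (3.03%), and 48 to 2211 were called with a sample left out (0.277% to 12.7%). The count of called members moved from 2 (5.26%) to 1 with at least 10 counts in every sample (2.63%, beside 1.67% of all tested genes). It was 13 with the offsets (34.2%, beside 15.2%) and 17 with offsets and block (44.7%, beside 21.0%). With a sample left out it was 0 to 12 (0% to 31.6%, beside 0.277% to 12.7%). Other release genes moved from 2 (4.76%) to 10 with the offsets (23.8%) and 15 with offsets and block (35.7%), beside the same shares of all genes. With a sample left out they were 0 to 9 (0% to 21.4%). Postsynaptic scaffold genes moved from 0 to 1 without the filter, 1 with DESeq2 and 1 with the replicate block (5.56% each). They were 8 with the offsets (44.4%), 9 with offsets and block (50.0%), and 0 to 8 with a sample left out (0% to 44.4%). Of the counts with a sample left out, the highest came without replicate 2 at 16 months, and the cause was not tested. The number of paralog ratios with ages apart was 3 to 7 with a sample left out.

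The ages share replicate numbers, and the main test used no replicate block because the study's methods name none. The deviations of same-numbered samples correlated with r = 0.18, 0.096 and 0.035. Correlations of differently numbered samples were not computed, so that these values cannot decide whether the numbers pair the samples. Across the 38 genes, r with GC content had the same sign at both ages in replicate 1 (0.67 and 0.92), replicate 2 (−0.62 and −0.89) and replicate 3 (−0.28 and −0.34). Whether the samples are paired was not tested. With the replicate number as a block, 3 members were called (7.89%), beside 4.57% of all genes. They were Unc13c, Syn3 and Syn1, and Syn1 had a log2 fold change of 0.24 (adjusted P = 0.0279).

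Fold changes near 0 turned sign. Synpr was at −0.0001 without the filter and −0.0056 with the replicate block. With the offsets, and with offsets and block, Unc13a was at −0.0344 and −0.0342, Rims2 at −0.0033 and −0.0028, and Napa at −0.0123 and −0.0122, and the ratio of Rims2 to Rims1 was at −0.0079 with the offsets. With a sample left out, the fold change ran from −0.1213 to 0.0978 for Synpr, −0.0159 to 0.1058 for Syngr1, −0.005 to 0.1519 for Syngr3, −0.0529 to 0.0074 for Sv2b, −0.0521 to 0.1603 for Syt3, −0.0266 to 0.0965 for Syt5, −0.1363 to 0.006 for Snap25, −0.0511 to 0.0987 for Stx1a, −0.0344 to 0.0667 for Unc13a, −0.0297 to 0.0227 for Unc13b, −0.1206 to 0.0943 for Bsn, −0.0266 to 0.028 for Pclo and −0.0366 to 0.0739 for Napa. The ratios ran from −0.0171 to 0.0182 for Rims2 to Rims1, −0.0486 to 0.0062 for Unc13b to Unc13a and −0.2883 to 0.0225 for Synpr to Syp. Of the member fold changes under other settings of the whole data, 230 kept their direction and side of the threshold, 27 passed it, 1 lost it (Syn3) and 8 turned sign. With a sample left out the numbers were 189, 12, 8 and 19. The 8 losses were Unc13c and Syn3 without each 6-month sample or replicate 3 at 16 months. Depth limits the least abundant members, and counting error per sample reached 5.38% for Syn3, 4.41% for Doc2a and 4.39% for Cplx3.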
